A study of Homo sapiens with 6 samples.

Results

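The IFIT and IFITM genes are 2 families of interferon-stimulated genes whose products act against viral RNA and viral entry. The 7 members described here, *IFIT1*, *IFIT2*, *IFIT3*, *IFIT5*, *IFITM1*, *IFITM2* and *IFITM3*, were found by their symbol among the 22807 genes of the expression table, and all 7 were present. RNA was sequenced from MDA-MB-453 cells, a HER2+ breast cancer cell line labelled as wild type, in 3 libraries after scrambled siRNA and 3 libraries after siRNA against *DUSP6*, a phosphatase of the MAP kinase ERK. The scrambled libraries were negative controls that had also received siRNA, and no untransfected library was used here. The study's legend gives 3 different siRNAs for each group, but the labels tie none of them to a library and give no time after transfection. The labels do not say whether the libraries of a group came from separate cultures, so the p-values measure only the spread between these libraries. That spread may be technical, and it includes differences between siRNAs if each library of a group received a different siRNA.

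IFIT proteins are built from tetratricopeptide repeats and bind RNA whose start lacks the marks of the cell's own mRNA, which keeps that RNA from being translated. IFITM proteins sit in the plasma membrane and in endosomes and hinder the fusion of viral with cellular membranes. Most members of both families are transcribed when interferon, through JAK kinases, activates transcription factors that bind interferon-stimulated response elements in promoters.

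Such elements contain a repeat of the letters GAAA. Promoter windows of RefSeq on GRCh38.p14, from 250 bases before to 50 bases after a gene start, were therefore searched on both strands for GAAA, any 2 bases and GAAA again, which reads TTTC, any 2 bases and TTTC on the opposite strand. Windows were found for 5 of the 7 members, with 2 starts for *IFIT3*. Not matched to the table were *IFIT2* and *IFITM2*. The stretches that hold the matches are shown because the letters and their spacing differ between the members, and the capitals mark the matches.
IFIT1, chr10:89392497-89392539, plus strand: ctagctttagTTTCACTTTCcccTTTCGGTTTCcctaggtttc
IFIT3, first start, chr10:89327831-89327894, plus strand: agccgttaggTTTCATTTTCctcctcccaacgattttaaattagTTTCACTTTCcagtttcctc
IFIT3, second start, chr10:89332425-89332497, plus strand: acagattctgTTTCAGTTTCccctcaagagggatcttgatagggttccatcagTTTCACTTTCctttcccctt
IFIT5, chr10:89414513-89414577, plus strand: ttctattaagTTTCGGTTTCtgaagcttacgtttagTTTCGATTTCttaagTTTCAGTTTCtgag
IFITM1, chr11:313990-314049, plus strand: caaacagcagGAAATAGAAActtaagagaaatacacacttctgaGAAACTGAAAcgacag
IFITM3, chr11:320876-320922, minus strand: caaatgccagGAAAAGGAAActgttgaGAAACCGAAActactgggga

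Each of the 6 windows held at least 2 matches, and the window of *IFIT5* held 3. In the IFIT windows all matches lay on the strand opposite to the gene, and in the IFITM windows they lay on the gene's own strand. The matches of *IFIT1* began 116 and 103 bases before the start. Those of *IFITM1* began 40 and 6 bases before it, and those of *IFITM3* 52 and 35 bases before it. Of all 35116 promoter windows in the table, 3.57% held a match and 0.259% held 2 or more. A match is a description of letters and was not tested as a site of binding.

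**Figure D1:**
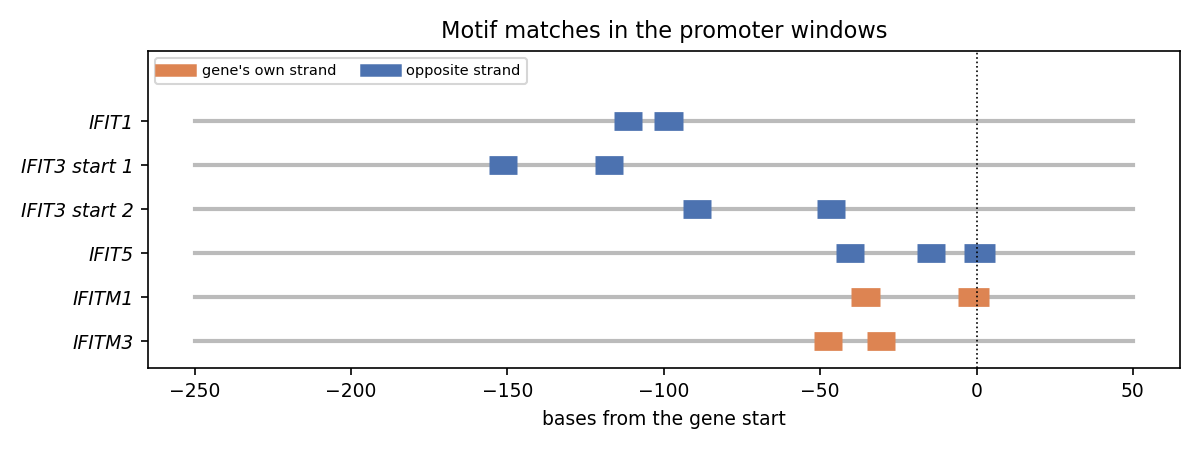
Positions of the motif matches (colored blocks) in the promoter windows of the members (gray lines), in bases from the gene start. Orange blocks lie on the gene's own strand and blue blocks on the opposite strand. The matches of *IFIT1* and of the first start of *IFIT3* lie farther from the start than those of *IFIT5*, *IFITM1* and *IFITM3*.

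The deposited values were reads scaled for the size and composition of the library. The libraries held between 45546981 and 85729785 reads, and 1 read was worth between 0.0121 and 0.0202. *DUSP6* was 209, 110 and 114 in the scrambled libraries and 39.4, 24.5 and 35.2 in the knockdown libraries, so the groups did not overlap. All 10 luminal and HER2 markers were measured, and their summed value lay between 5873 and 7300 in the scrambled libraries and between 4043 and 4382 in the knockdown libraries. The 4 immune markers found, among them *PTPRC*, summed to between 4.63 and 5.65 in the scrambled libraries and to between 3.94 and 5.73 in the knockdown libraries, and 3 of the 4 had a mean under 1. Of the luminal and HER2 markers *ERBB2*, *KRT8*, *KRT18*, *KRT19*, *GATA3*, *FOXA1*, *SPDEF* and *XBP1* were called lower at an adjusted p under 0.05 by limma, with log2 fold changes from -1.81 to -0.42. The call of *KRT8* was lost in 5 of the 6 fits without 1 library. The 3 basal markers summed to between 7.71 and 15.8 and then to between 2.05 and 2.93, mostly *TP63*, whose mean went from 10.1 to 1.76. The means of *KRT5* were 0.737 and 0.514 and those of *KRT14* 0.0411 and 0.357. The 5 fibroblast and endothelial markers found summed to between 81.2 and 105.8 in the scrambled libraries and to between 162.1 and 192.5 in the knockdown libraries, of which *COL1A1* made up nearly all, since the other 4 had a mean under 1. The part of these shifts in the members' values was not tested. In such bulk samples a lower share of cells of a type and less RNA per cell cannot be told apart.

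*DUSP6* knockdown was accompanied by higher values of 6 of the 7 members. Tested with limma on log2(value + 1), with Benjamini-Hochberg adjustment over the 12862 genes whose mean value reached 1, these 6 rose at an adjusted p under 0.05, 0 members fell, and *IFITM2* was not called. Among all genes tested, 19.7% were called higher and 24.7% lower. The same 6 members had all knockdown libraries above all scrambled libraries, as did 26.7% of the genes tested, and 0 members had all of them below, against 31.1%. With a log2 fold change above 2 as well, 5 members were called higher, against 0.653% of the genes tested. The log2 fold changes of the members ranged from -0.21 to 7.19 with a median of 3.05, beside a median of -0.01 over all genes tested. *IFITM1* reached the minimum mean of 1 only through its knockdown libraries.

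**Figure D2:**
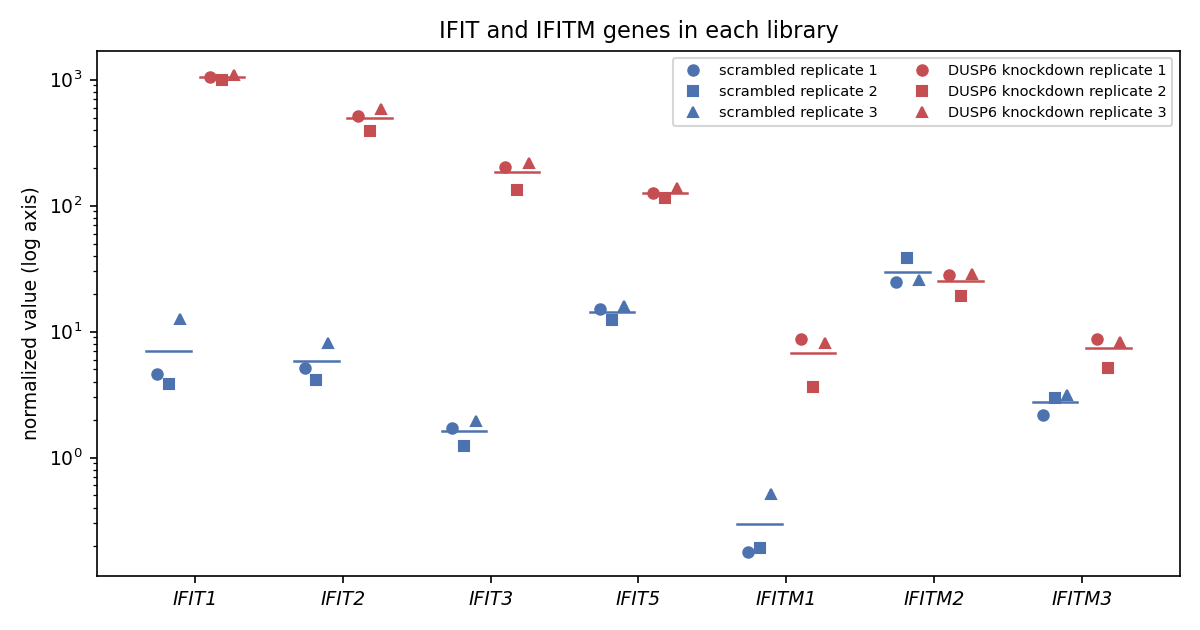
Normalized value (log axis) of each member in each library. Blue symbols are scrambled and red symbols *DUSP6* knockdown libraries, the shape gives the replicate, and short lines are the group means of 3 libraries. The groups are apart for all members but *IFITM2*, whose values lie between 19.0 and 38.2.

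*IFIT1*, which binds RNA with a cap that lacks ribose methylation and blocks its translation, had the largest change of the members. Its value was 4.58, 3.81 and 12.6 in scrambled replicates 1 to 3 and 1043, 986 and 1096 in knockdown replicates 1 to 3. The lowest knockdown library was 78.4 times the highest scrambled library, which was replicate 3. The mean rose from 6.99 ± 4.85 (SD, n = 3) to 1042 ± 55.2 (SD, n = 3), 149.1-fold, with a log2 change of 7.19 ± 0.32 (SE, adjusted p = 1.51e-06 by limma). Of the 12862 genes tested it ranked 2 by log2 fold change. *IFIT1* (Entrez gene 3434) lies on the plus strand of chromosome 10 of GRCh38, from 89392623 to 89406487, and its MANE Select transcript has 2 exons.

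*IFIT2* and *IFIT3* encode partners that assemble with IFIT1, and IFIT3 is known to stabilize it. *IFIT2* was 5.18, 4.16 and 8.15 in the scrambled libraries and 512, 394 and 582 in the knockdown libraries. Its mean rose 85.1-fold, from 5.83 ± 2.07 to 496 ± 94.97 (SD, n = 3 each), with a log2 change of 6.21 ± 0.21 (SE, adjusted p = 3.29e-07 by limma). *IFIT3* had lower values in both groups. It was 1.71, 1.25 and 1.95 in the scrambled libraries and 202, 133 and 218 in the knockdown libraries. The mean rose from 1.64 ± 0.36 to 185 ± 45.0 (SD, n = 3 each), 112.8-fold, with a log2 change of 6.11 ± 0.19 (SE, adjusted p = 1.82e-07 by limma). For both genes knockdown replicate 2 was the lowest of its group and still far above every scrambled library. *IFIT2* (Entrez gene 3433, 89302046 to 89309271) and *IFIT3* (Entrez gene 3437, 89327997 to 89340968) lie on the plus strand upstream of *IFIT1*.

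*IFIT5*, which binds RNA with a bare triphosphate start and works without the other IFIT proteins, moved least of its family. Its value was 15.1, 12.2 and 15.9 in the scrambled libraries and 127, 115 and 137 in the knockdown libraries. The libraries of each group lay close together. The mean rose 8.75-fold, from 14.4 ± 1.91 to 126 ± 11.1 (SD, n = 3 each), with a log2 change of 3.05 ± 0.12 (SE, adjusted p = 6.83e-07 by limma). *IFIT5* (Entrez gene 24138) lies on the plus strand of chromosome 10 from 89414568 to 89420997, and the 3 matches in its promoter window exceed the number in any of the other windows.

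Among the IFITM genes, *IFITM1*, whose product acts mainly at the cell surface, had few reads in the scrambled libraries. It was counted with 12, 10 and 43 reads there, values of 0.179, 0.192 and 0.518, and with 432, 297 and 524 reads in the knockdown libraries, values of 8.73, 3.63 and 8.10. The mean rose from 0.296 ± 0.192 to 6.82 ± 2.78 (SD, n = 3 each), 23.0-fold. Its log2 change was 2.53 ± 0.26 (SE, adjusted p = 1.27e-04 by limma), which the added 1 makes smaller than the ratio of the means. With a pseudocount of 0.1 it was 4.13, and the quasi-likelihood test of edgeR, run on the reads, gave 4.48. *IFITM1* (Entrez gene 8519) lies on the plus strand of chromosome 11 from 314040 to 315272.

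*IFITM3*, whose product resides in endosomes and restricts influenza virus, rose by less. It was 2.19, 2.97 and 3.12 in the scrambled libraries and 8.69, 5.18 and 8.28 in the knockdown libraries. The mean rose 2.68-fold, from 2.76 ± 0.50 to 7.39 ± 1.92 (SD, n = 3 each), with a log2 change of 1.14 ± 0.19 (SE, adjusted p = 0.00138 by limma). The groups did not overlap, and knockdown replicate 2 lay nearest to the scrambled libraries. *IFITM3* (Entrez gene 10410) lies on the minus strand of chromosome 11 from 319676 to 320860.

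*IFITM2*, a close relative of *IFITM3* whose product is also endosomal, was 24.7, 38.2 and 25.9 in the scrambled libraries and 28.0, 19.0 and 28.8 in the knockdown libraries. The groups overlapped. The means were 29.6 ± 7.48 and 25.3 ± 5.42 (SD, n = 3 each), a log2 change of -0.21 (95% interval -0.66 to 0.23, adjusted p = 0.401 by limma), so a change within these bounds cannot be told from none in 3 against 3 libraries. Scaling to the library total in place of the deposited normalization, which moves the median of all genes to 0.20, gave 0.0070 for *IFITM2*. *IFITM2* (Entrez gene 10581) lies on the plus strand of chromosome 11 from 307816 to 309395.

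The 3 IFITM genes are near-identical in part of their sequence, so their values are uncertain where reads could be assigned to more than one of them. Of the stretches of 50 bases in the MANE Select transcripts of GENCODE v44, 15.8% of those of *IFITM1*, 10.0% of those of *IFITM2* and 20.8% of those of *IFITM3* also occurred in IFITM genes or pseudogenes elsewhere. For *IFITM1* the share was 55.1% when an unnamed gene model that overlaps it on the same strand was included. Exons of other genes covered 52.5% of its MANE Select transcript. These overlaps are of GENCODE v44, and whether the RefSeq models used for counting hold the same genes was not checked. Of the merged exons, other genes covered 31.6% for *IFITM1*, 16.3% for *IFITM3* and 13.6% for *IFIT2*. The share was 1.86% for *IFIT3*, 2.18% for *IFITM2* and 0 for *IFIT1* and *IFIT5*. The kit marks strand, but the study counted reads with the default options of Rsubread, which do not use strand, so reads of overlapping genes on opposite strands could not be told apart.

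**Figure D3:**
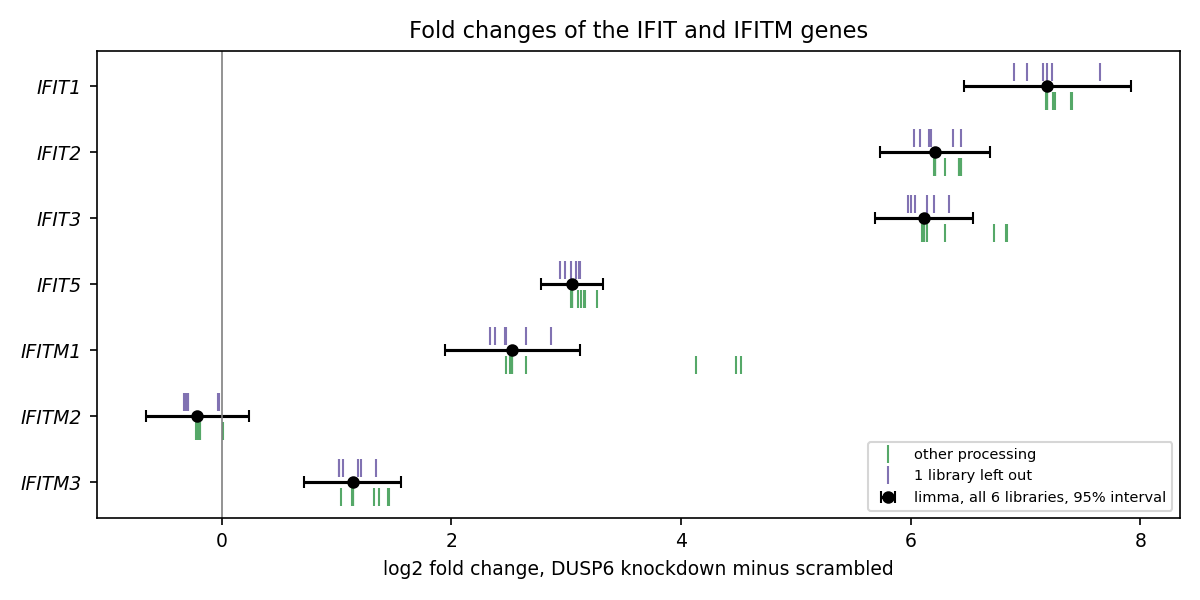
Log2 fold change of each member, knockdown minus scrambled. Black points and bars are the limma estimates and 95% intervals from all 6 libraries, green ticks other processing choices and purple ticks fits without 1 library. *IFITM2* alone has an interval that includes 0, and *IFITM1* depends most on the pseudocount.

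The members of a family did not move by the same amount. Within each library the log2 ratio of 2 members was taken for all 9 pairs within the families, which removes the library's scaling. No pseudocount was added to these ratios, and values with 1 added are given where they differ. The ratio of *IFIT1* to *IFIT5* was between -1.72 and -0.34 in the scrambled libraries and between 3.00 and 3.10 in the knockdown libraries, a difference of 4.30. The ratio of *IFIT2* to *IFIT5* differed by 3.32 and that of *IFIT3* to *IFIT5* by 3.68. With 1 added these ratios to *IFIT5* differed by 4.14 for *IFIT1*, 3.16 for *IFIT2* and 3.07 for *IFIT3*, so the order of the last 2 turned. The partners *IFIT1*, *IFIT2* and *IFIT3* kept closer to one another, with differences of 0.98 for *IFIT1* to *IFIT2* and -0.36 for *IFIT2* to *IFIT3*. With 1 added to both values the latter turned to 0.094, with an exact permutation p of 0.6. The ratio of *IFIT1* to *IFIT3* differed by 0.62, and its groups overlapped. It differed by 1.01 without scrambled replicate 3 and by 0.38 without scrambled replicate 1. With 1 added it differed by 1.07, and the groups were apart with an exact permutation p of 0.1. In the other family the ratio of *IFITM1* to *IFITM2* differed by 4.83, that of *IFITM1* to *IFITM3* by 3.21 and that of *IFITM2* to *IFITM3* by -1.62. With 1 added, which weighs on the 10 to 43 reads of *IFITM1* in the scrambled libraries, the first fell to 2.74 and the second to 1.39. That of *IFITM2* to *IFITM3* moved to -1.35. Without a pseudocount, the groups were apart for 8 of the 9 pairs, each with a two-sided exact permutation p of 0.1, the smallest that 3 libraries against 3 allow, and 0.1125 after Benjamini-Hochberg adjustment over the 9 pairs. For *IFIT1* to *IFIT3* the exact permutation p was 0.3, and 0.3 after adjustment.

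Levels of different genes were compared as values per kilobase of merged exons. In the scrambled libraries *IFITM2* stood highest at 18.4 ± 4.66 per kilobase, followed by *IFIT5* at 3.30 ± 0.437 (SD, n = 3 each). *IFIT1* at 1.51, *IFIT2* at 1.35 and *IFITM3* at 0.970 came next with overlapping ranges, then *IFIT3* at 0.323 and *IFITM1* at 0.178, whose ranges also overlapped. In the knockdown libraries the order began with *IFIT1* at 225.8 ± 12.0 and *IFIT2* at 114.6 ± 22.0 per kilobase. *IFIT3* at 36.4 and *IFIT5* at 28.9 followed with overlapping ranges, then *IFITM2* at 15.7, *IFITM1* at 4.09 and *IFITM3* at 2.60, the last pair overlapping. *IFIT5* thus made up 52.6% ± 9.09 of the summed IFIT level per kilobase in the scrambled libraries and 7.13% ± 0.19 in the knockdown libraries, while *IFIT1* went from 21.8% ± 8.51 to 55.9% ± 3.45 (SD, n = 3 each). *IFITM2* made up 94.0% ± 1.79 of the IFITM level and then 70.8% ± 3.60. The order among the lowly expressed members and the shares of the families depended on the exon length used. By the MANE Select transcript, tried after seeing the data, *IFITM2*, *IFITM3* and *IFITM1* stood at 29.4, 4.52 and 0.443 per kilobase in the scrambled libraries. In the knockdown libraries they stood at 25.1, 12.1 and 10.2.

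Knockdown replicate 2 was the lowest knockdown library for 7 of 7 members. It was the lowest for 33.5% of all genes tested, for 17.8% of all 2540 genes called higher and for 78.6% of the 84 genes called higher with a log2 fold change above 2, and it also had the lowest *DUSP6* value. Scrambled replicate 3 was the highest scrambled library for 6 of 7 members, for 38.3% of all genes tested, for 49.1% of the genes called higher and for 67.9% of those 84 genes. Leaving out either library, all 6 calls remained.

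The relatives outside the list differed from each other. *IFIT1B*, a relative of *IFIT1* that lies between *IFIT3* and *IFIT1*, had 5, 4 and 14 reads in the scrambled libraries and 781, 1147 and 1044 reads in the knockdown libraries, and passed the minimum mean only through the latter. Its mean went from 0.107 to 15.3, 143.7-fold beside 149.1-fold for *IFIT1*, and its log2 change of 3.88 (adjusted p = 1.67e-07 by limma) is made smaller by the added 1. Its reads were 1.62%, 2.01% and 1.34% of those of *IFIT1* in the scrambled libraries and 1.51%, 1.42% and 1.47% in the knockdown libraries, and 1.98% of its stretches of 50 bases also occurred in *IFIT1* or the pseudogene *IFIT6P*. Its value is therefore uncertain, and the part of shared reads in it was not tested. *IFITM10*, which lies apart from the IFITM cluster, had a log2 change of 0.01 (adjusted p = 0.960 by limma).

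The tested genes around both clusters had log2 fold changes from -0.79 to 1.02, smaller in size than those of the members called higher. The IFIT genes span 119.0 kb and the IFITM genes 13.04 kb. Of 6 tested neighbors of the IFIT genes, *FAS*, a death receptor, and *LIPA*, a lysosomal lipase, were called higher with log2 fold changes of 0.99 and 1.02, and *KIF20B*, a mitotic kinesin, was called lower with -0.43. The span of *LIPA* covers *IFIT2*, *IFIT3* and *IFIT1* on the other strand, so its value is uncertain. Of 12 tested neighbors of the IFITM genes, *RNH1*, a ribonuclease inhibitor, was called higher (0.47), and *PGGHG* (-0.59) and the GTPase gene *HRAS* (-0.79) were called lower. The call of *KIF20B* was lost without any 1 of the knockdown libraries, that of *RNH1* without knockdown replicate 1 or 2, and that of *PGGHG* without replicate 2 or 3 of either group. The median log2 fold change was 0.04 for the IFIT neighbors and 0.09 for the IFITM neighbors. Over all genes tested, 19.7% were called higher and 24.7% lower.

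**Figure D4:**
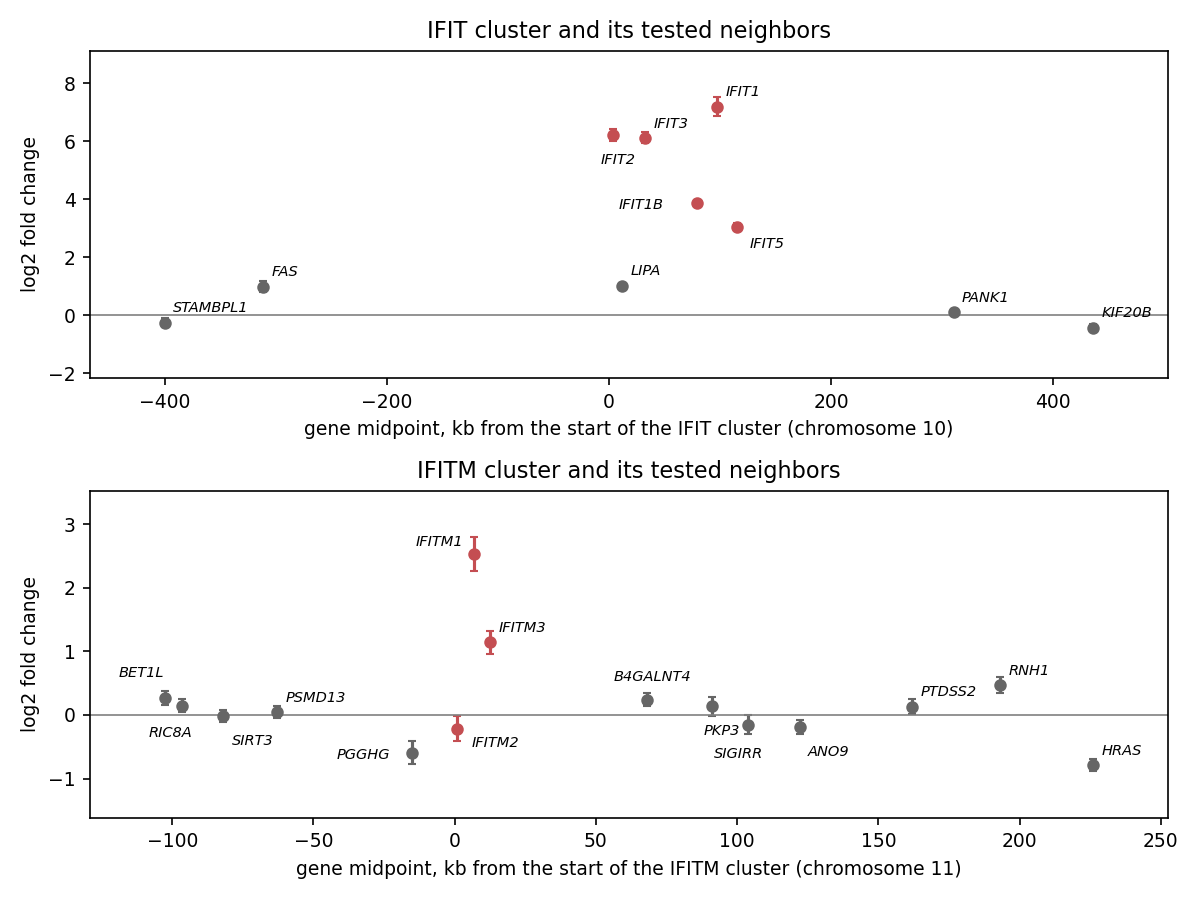
Log2 fold change (knockdown minus scrambled, bars give the standard error) of tested genes against the position of the gene's midpoint, in kb from the start of each cluster. Red points are IFIT and IFITM genes and gray points are neighbors, with *RNLS* outside the range drawn. The red points of the IFIT cluster stand at 3.05 or above, while *LIPA*, which lies across them, stands at 1.02.

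The genes that lead to interferon signaling were followed from the lists of the pathway. The transcription factor genes *IRF9* and *STAT2* rose, with log2 fold changes of 3.70 and 1.51. *IRF9* was 12.0, 13.3 and 26.5 in the scrambled libraries and 220, 222 and 225 in the knockdown libraries, again with scrambled replicate 3 as the highest of its group. Of the receptors and kinases, 4 of 8 tested genes rose and 0 fell, beside 19.7% called higher and 24.7% lower over all genes tested. *JAK2* rose by 1.15, *TYK2* by 0.56, *IFNAR2* by 0.45 and *JAK1* by 0.31. The call of *JAK1* was lost without any 1 of the knockdown libraries and that of *IFNAR2* without knockdown replicate 2. The ligands themselves were scarce. The 7 interferon genes found had 7, 2 and 30 reads in all in the scrambled libraries and 1739, 1516 and 2501 reads in the knockdown libraries. *IFNB1* was counted with 1, 0 and 10 reads and then with 181, 129 and 303 reads, and *IFNL1*, *IFNL2* and *IFNL3* rose likewise. These 4 genes passed the minimum mean only through the knockdown libraries.

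Sensors of viral RNA feed interferon production. Of 9 tested genes of this list 5 rose and 2 fell, beside 19.7% called higher and 24.7% lower over all genes tested. *DDX58*, which encodes the sensor RIG-I, rose by 4.35, *IFIH1*, which encodes the sensor MDA5, by 3.41, *DHX58* by 3.13, the transcription factor *IRF7* by 2.71 and the kinase *TBK1* by 0.37 on the log2 scale. The kinase *IKBKE* fell by 1.65 and the adaptor *MAVS* by 0.24. Of 9 brakes on interferon signaling 4 rose and 1 fell, beside the same shares over all genes tested. *ISG15*, a ubiquitin-like modifier, rose by 4.70 and *USP18*, which removes that modifier and restrains the receptor, by 1.30. *SOCS1*, which passed the minimum mean only through the knockdown libraries (means of 0.921 and 1.81), rose by 0.55, *PTPN1* by 0.50, and *PIAS1* fell by 0.50. The calls of *MAVS* and *PIAS1* held in 1 of the 6 fits without a library, that without scrambled replicate 3, and the call of *PTPN1* held in that without scrambled replicate 2. The call of *TBK1* was lost without knockdown replicate 2 or 3.

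Tested genes that work with the members or on the same RNA had log2 fold changes from -0.62 to 1.04. Over all genes tested, 19.7% were called higher and 24.7% lower. Among 6 genes of cap formation, *CMTR1*, which adds the ribose methylation that IFIT1 reads, rose by 1.04 and *RNMT*, which methylates the cap guanine, by 0.46, while *CMTR2* fell by 0.33. Of the 13 subunits of eIF3, the initiation factor that IFIT1 and IFIT2 can bind, 0 rose and 5 fell, *EIF3C* by 0.53, *EIF3E* by 0.53, *EIF3H* by 0.50, *EIF3J* by 0.47 and *EIF3M* by 0.25. Under quantile normalization the subunits *EIF3A*, *EIF3D*, *EIF3F* and *EIF3G* were called higher, while *EIF3C*, *EIF3E*, *EIF3H* and *EIF3J* were still called lower. Of 13 tested genes that modify, move or bind IFITM proteins, *OSBP*, a sterol carrier, rose by 0.25, *AP2M1*, a clathrin adaptor subunit, fell by 0.32 and the tetraspanin *CD9* fell by 0.62. The calls of *OSBP* and *EIF3M* held without scrambled replicate 2 and in none of the other 5 such fits. Those of *RNMT* (knockdown replicate 2 or 3), *CMTR2* (scrambled replicate 1, knockdown replicate 1 or 3) and *AP2M1* (knockdown replicate 1 or 3) were lost without the library named. The median log2 fold change was -0.14 for eIF3 and -0.23 for the IFITM list, beside -0.01 over all genes tested.

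**Figure D5:**
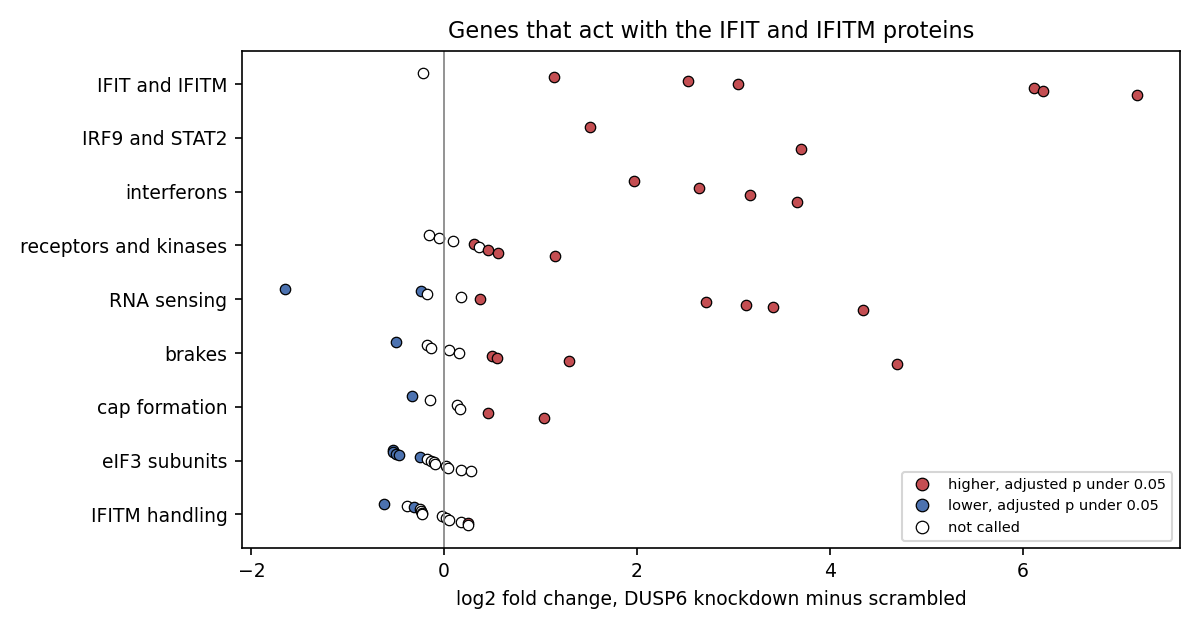
Log2 fold change (knockdown minus scrambled) of tested genes of the pathway lists, with 1 point per gene. Red and blue points were called higher and lower by limma at an adjusted p under 0.05, and white points were not called. Values above 2 are reached by *IFIT1*, *IFIT2*, *IFIT3*, *IFIT5*, *IFITM1*, *IRF9*, the brake *ISG15* and some of the interferon and RNA sensing genes. The eIF3 and IFITM handling genes stay between -0.62 and 0.28.

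For each member the 2 other genes with the nearest values over the 6 libraries were taken, by the distance of log2(value + 1) less the scrambled mean. They were *IFI6* (distance 0.922) and *OASL* for *IFIT1*, *RSAD2* (0.338) and *OASL* for *IFIT2*, and *RSAD2* (0.277) and *OASL* for *IFIT3*. For *IFIT5* they were the sensor gene *DHX58* (0.311) and the peptide transporter gene *TAP1*, and for *IFITM1* they were *PLSCR1* (0.449) and *XAF1*. For *IFITM2* they were *SPNS2* (0.151), a transporter of sphingosine phosphate, and *MISP* (0.212), and for *IFITM3* they were *TMOD2* (0.217), an actin-capping tropomodulin, and *SLC8A2* (0.269), a sodium-calcium exchanger. Within a distance of 1 lay 6638 genes for *IFITM2* and 513 for *IFITM3*, against 1 for *IFIT1*, 5 each for *IFIT2* and *IFIT3*, 27 for *IFIT5* and 24 for *IFITM1*.

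Promoter matches were also counted over the other genes. Of tested genes with a promoter window, 3.80% held at least 1 match. The share was 6.58% of genes called higher, 2.72% of genes called lower, 3.30% of genes not called and 54.0% of the 63 genes called higher with a log2 fold change above 2, and 27.0% of the last held 2 or more. *IFIT1B* held 0 matches in its window. The 4 members *IFIT1*, *IFIT3*, *IFIT5* and *IFITM1* are among those 63 genes, and no test was run on these shares.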

How the data were processed

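The authors sequenced 3 scrambled siRNA and 3 *DUSP6* siRNA libraries, used Rsubread to align the reads to hg38 and to count them over RefSeq gene models, and deposited 1 normalized signal value for each gene in each library. For 100% of the values this signal was a whole number of reads (tolerance 0.01) times 1 step per library, and the steps were those of edgeR's TMM scaling. Groups came from the labels.

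Values were taken as log2(value + 1). The 12862 genes with a mean of at least 1 were compared in R 4.3.3 by limma 3.58.1, using lmFit and a trended eBayes, and were called when the Benjamini-Hochberg adjusted p fell under 0.05. The script was tested on simulated data. Alternatives were a pseudocount of 0.1, other filters and scalings, a replicate block, edgeR 4.0.16 and DESeq2 1.42.0 on the recovered reads, and leaving out each library.

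Named were the 7 members, *DUSP6*, genes of lists of the pathway, of neighbors and of cell type markers where they were called or a count turned on them, and the 2 genes nearest to each member. The members and lists were chosen with earlier results of these data known. RefSeq on GRCh38 gave the gene positions. Lengths were taken from GENCODE v44, not from the RefSeq exons planned. Protein sequences were not used here, and some genes of the lists are not reported here. Intervals of read counts were not given, because the spread between libraries sets the precision.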

Additional observations from a re-analysis of the deposited data

How the results depend on the processing

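The 6 calls of members and that of *DUSP6* kept their direction and their side of the threshold under all alternatives in which they were tested. A minimum mean of 10 removed *IFITM1* and *IFITM3*, which left 4 of the members called. *IFITM2* reached 0.0070 when scaled to the library total and was called under no alternative. The ratio of *IFIT2* to *IFIT3* turned from -0.36 to 0.094 with a pseudocount of 1, and adding 1 lowers it most where *IFIT3* is low. The same pseudocount moved the ratio of *IFITM1* to *IFITM2* from 4.83 to 2.74, that of *IFITM1* to *IFITM3* from 3.21 to 1.39 and that of *IFIT1* to *IFIT3* from 0.62 to 1.07. By the longest transcript *IFIT1* ranked 5 and *IFITM3* 3 per kilobase in the scrambled libraries. By the MANE Select transcript, tried after seeing the data, *IFIT1* ranked 5, *IFIT5* 3 and *IFITM3* 2 there, and *IFITM1* 7 and *IFITM3* 6 in the knockdown libraries.

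Counts of the lists moved more, and the cause was not tested. Without a filter, 0 brakes were lower, 1 gene of cap formation was higher and 1 IFITM neighbor was lower. The scalings of the lists were tried after seeing the data. Under quantile normalization 1 RNA sensing gene, 0 brakes, 0 genes of cap formation and 1 of IFITM handling were lower, and 4 eIF3 subunits, 3 genes of IFITM handling and 4 IFITM neighbors were higher. Under scaling to the library total the lower genes numbered 1, 0, 0 and 1 in the same order, 3 for eIF3, 0 for the IFIT neighbors and 1 for the IFITM neighbors, and the higher genes 3 for eIF3, 3 for IFITM handling and 5 for the IFITM neighbors. Over all genes, 2540 were higher and 3179 lower, against 4794 and 1799 under that scaling, 2958 and 2882 under quantile normalization, and 1639 higher with a minimum mean of 10.

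Leaving out 1 library gave 2 to 5 receptors and kinases higher, with 2 without knockdown replicate 2. It gave 1 to 2 RNA sensing genes lower, with 2 only without scrambled replicate 3, and 0 to 1 brakes lower, with 1 only without that same library. It gave 4 to 6 RNA sensing genes higher. For cap formation it gave 1 to 3 higher and 0 to 1 lower, for eIF3 0 to 1 higher, for IFITM handling 0 to 1 higher and 1 to 5 lower, for the IFIT neighbors 0 to 2 lower, and for the IFITM neighbors 0 to 4 higher and 1 to 3 lower. Without knockdown replicate 2, 1535 genes were higher in all, without replicate 3 1686, and without scrambled replicate 3 3213. The replicate numbers were shared by the groups. Deviations of same-numbered libraries had correlations of 0.01, 0.09 and -0.08, and those of differently numbered libraries lay between -0.09 and 0.13. No pairing was visible, but so few libraries cannot show that the samples were unpaired. The replicate block gave 2495 higher and 3096 lower genes, with 1 RNA sensing gene lower and 0 genes of IFITM handling higher, and kept the 6 members called.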
